A study of Mus musculus with 6 samples.

Results

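The Bcl-2 family holds the proteins that decide at the mitochondrial outer membrane whether a cell dies by apoptosis. Of 9 family genes looked up by symbol (Mcl1, Bcl2l1, Bcl2l2, Bax, Bak1, Bad, Bid, Bcl2l11 and Bbc3), 8 were among the 9120 genes with a value. Bid was not analysed here. They were looked up by symbol, with no threshold on any value. All 8 passed the filter on low values described below.

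Pro-survival members (here MCL-1, BCL-XL from Bcl2l1 and BCL-W from Bcl2l2) hold the effectors BAX and BAK in check. When freed, BAX and BAK form pores in the outer membrane and release cytochrome c, which leads to the activation of caspases. BH3-only proteins (here BAD, BIM from Bcl2l11 and PUMA from Bbc3) sense stress and act through a short helix, the BH3 domain, that binds a groove of the other members. Podocytes, the epithelial cells on the outer side of the kidney's filtration barrier, divide little, so cells lost in diabetes are poorly replaced, and high glucose is known to drive podocytes towards apoptosis.

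RNA was sequenced in 6 libraries from MPC5, a mouse podocyte line that is immortalised under permissive conditions, in 2 groups of 3. The knockdown group received siRNA against Mettl3, the gene of the catalytic subunit of the complex that places N6-methyladenosine (m6A) on mRNA, and the control group received a scrambled siRNA. Both groups were in high glucose (30 mM), after 7 days of differentiation at 37 °C without the interferon gamma (20 U/ml) used for growth at 33 °C, and both went through a 6 h transfection. No library in normal glucose and no untransfected library was analysed, so effects of glucose or of transfection cannot be read from these values, and 1 cell line stands for podocytes in general.

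Expression is in FPKM, fragments scaled by transcript length and library size, as the authors deposited it, and its sequencing depth was not recorded in the table. The sum of FPKM over all genes was 173721 to 176526 in each library. Of 24 podocyte markers, 12 were in the table, with a summed level of 384 to 397 FPKM in knockdown and 311 to 410 in control libraries. The slit diaphragm gene Nphs1 was not analysed here. Mettl3, the targeted gene, measured 3.68, 3.85 and 3.90 FPKM in knockdown replicates 1 to 3, against 5.87, 6.34 and 5.75 FPKM in control replicates 1 to 3. All 3 knockdown libraries were below all 3 controls, with a log2 fold change of -0.54 (SE 0.10, limma adjusted p = 0.799) and an exact two-sided permutation p of 0.1, the smallest that 3 against 3 allows. The design text calls the replicates biological, but the labels do not say whether they came from separate cultures. The codes of knockdown replicates 1 and 2 (HG-m3-1 and HG-m3-1-2) differ only by a suffix. Those of control replicates 1 and 2 (HG-blank-H2-1 and HG-blank-H2-2) differ only in the last number. SDs and p-values may therefore measure partly technical spread. The titles give replicates 1 and 2 of both groups codes with the prefix HG. Replicate 3 has codes of another form (S2-2 in knockdown and N2-1 in control), although its titles also say HG-stimulated. The titles explain neither these codes nor the word blank in those of control replicates 1 and 2. Replicate 3 stood apart on the first principal component (44.3% of the variance).

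The coding sequence of the BH3 domain is given for all 8 genes, since it is the element by which the 2 sides of the family bind each other. Each stretch has 48 bases (16 codons), 5′ to 3′ on the coding strand, read from GENCODE M21 transcripts on GRCm38. Capitals mark the codon of the small residue (glycine, serine or alanine) and that of the conserved aspartate which follows it.
Mcl1, chr3:95659424-95659471, plus strand: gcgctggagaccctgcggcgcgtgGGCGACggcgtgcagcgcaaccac
Bcl2l1, chr2:152829688-152829735, minus strand: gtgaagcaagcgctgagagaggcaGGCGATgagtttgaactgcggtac
Bcl2l2, chr14:54884505-54884552, plus strand: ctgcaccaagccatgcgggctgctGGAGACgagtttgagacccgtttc
Bax, chr7:45465988-45466035, minus strand: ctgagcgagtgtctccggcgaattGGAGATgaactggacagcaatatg
Bak1, chr17:27022522-27022569, minus strand: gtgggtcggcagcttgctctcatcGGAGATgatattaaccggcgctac
Bad, chr19:6950780-6950827, plus strand: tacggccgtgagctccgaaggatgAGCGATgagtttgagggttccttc
Bcl2l11, chr2:128147138-128147185, plus strand: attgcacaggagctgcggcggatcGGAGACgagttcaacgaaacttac
Bbc3, chr7:16313761-16313808, plus strand: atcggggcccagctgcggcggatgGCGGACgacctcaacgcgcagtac
The pattern searched in the translated coding sequence was leucine or methionine, any 2 residues, an aliphatic residue or methionine or alanine, the small residue, aspartate, an acidic residue or glycine, and a hydrophobic residue. It was written from known BH3 domains, so a match in these genes is no finding. It occurred once in each of the 8 genes and in 110 of the 7934 tested genes with a coding sequence (1.39%). The most alike stretches were those of Bcl2l11 and Bbc3, both BH3-only genes, with 31 of 48 bases the same, followed by the pro-survival pair Bcl2l1 and Bcl2l2 with 30 of 48.

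Together the pro-death genes were expressed at a higher level than the pro-survival genes in every library, mainly through Bax and Bad. As means over the 6 libraries on the FPKM scale, the order was Bax (49.7), Bad (22.0), Bbc3 (15.1), Mcl1 (11.3), Bcl2l2 (10.8), Bcl2l1 (9.29), Bcl2l11 (2.79) and Bak1 (1.25). Bax, whose protein moves from the cytosol into the mitochondrial membrane, was above Bad in 6 of 6 libraries, and Bad was above Bbc3 in 6 of 6. Bbc3, Mcl1 and Bcl2l2 did not keep an order: Bbc3 was above Mcl1 in 3 of 6 libraries and Mcl1 above Bcl2l2 in 4 of 6. Bcl2l2 was above Bcl2l1 in 5 of 6. Bcl2l11 and Bak1, the gene of the effector that sits in the mitochondrial membrane from the start, were the lowest in 6 of 6. Among all 9120 genes, Bax lay between the 90.4 and 93.3 percentile of a library's levels and Bak1 between the 12.8 and 21.3 percentile.

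None of the 8 genes differed between knockdown and control beyond the threshold. The test was limma on log2(FPKM + 1) over 8047 genes with at least 1 FPKM in 3 or more libraries, with Benjamini-Hochberg adjustment over all of them and a threshold of 0.05. It called 0 of the 8047 genes (0%), 366 (4.55%) had an unadjusted p under 0.05, and all 8 family genes had an adjusted p of 0.998. Of the family, 0 of 8 genes had an unadjusted p under 0.05, and 0 of 8 had knockdown and control libraries that did not overlap, where 811 of the 8047 genes (10.1%) had. The log2 fold change was above 0 in 2 family genes and below 0 in 6, with a median of -0.09, while over all genes tested it was above 0 in 4400 and below 0 in 3647, with a median of 0.02. Fold changes are knockdown minus control on the log2(FPKM + 1) scale, which understates the change of low genes such as Bak1.

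**Figure D1:**
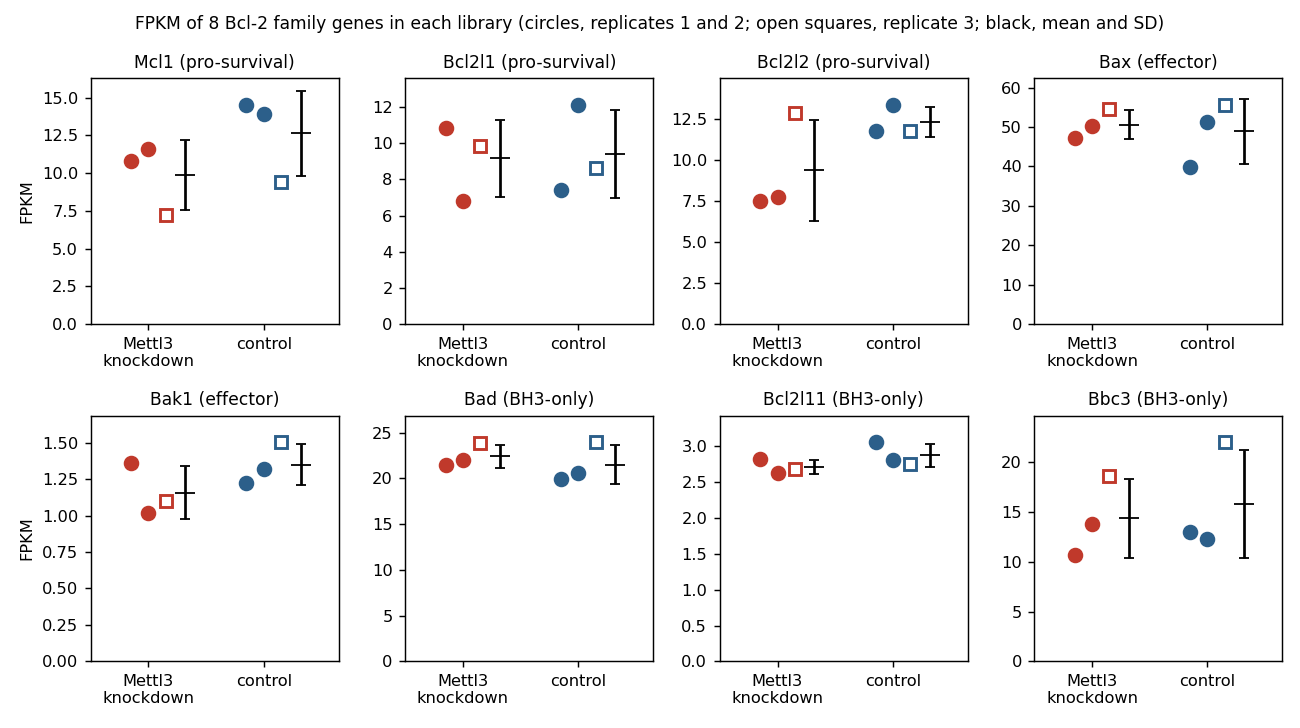
FPKM of the 8 genes in each library, with knockdown (red) left of control (blue). Circles are replicates 1 and 2, open squares replicate 3, and black bars the mean and SD of 3 libraries, and every gene has overlapping groups.

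Mcl1, which encodes a short-lived pro-survival protein that sequesters BAK and BIM, measured 10.8, 11.6 and 7.22 FPKM in knockdown replicates 1 to 3, against 14.5, 13.9 and 9.44 FPKM in control replicates 1 to 3. Each knockdown library was below the control of the same number, but control replicate 3 was below knockdown replicates 1 and 2, so the groups overlapped. The means were 9.88 ± 2.34 FPKM in knockdown and 12.6 ± 2.79 FPKM in control (SD, n = 3 each), 21.8% lower in knockdown. The log2 fold change was -0.33 (SE 0.22, 95% interval -0.84 to 0.18). With the form of the title code as a covariate, which is balanced over the groups and so cannot move the fold change of any gene, the SE of Mcl1 was 0.07 (95% interval -0.49 to -0.17). Its limma adjusted p was then 0.173, so it still did not pass. Under that covariate 970 of 8047 genes (12.1%) had an unadjusted p under 0.05, and 1 of the 8 family genes did, about the same share. The log2 difference was -0.32 within replicates 1 and 2 and -0.34 within the replicate 3 pair. Mcl1 was the 1 family gene of 8 in which knockdown was below control in both, with no overlap in either. Of the 8047 genes tested, 979 (12.2%) showed this pattern, about the same share as 1 of 8. Mcl1 spans chr3:95658788-95663176 on the plus strand (GRCm38).

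Bcl2l2, whose product BCL-W protects cells in the same way as BCL-XL, measured 7.47, 7.72 and 12.9 FPKM in knockdown replicates 1 to 3, against 11.8, 13.4 and 11.7 FPKM in controls. Knockdown replicates 1 and 2 were below all controls, while knockdown replicate 3 was above 2 of them. The means were 9.36 ± 3.05 FPKM in knockdown and 12.3 ± 0.92 FPKM in control (SD, n = 3 each). The log2 fold change was -0.40 (SE 0.20, 95% interval -0.86 to 0.07). Within replicates 1 and 2 the log2 difference was -0.66 (limma adjusted p = 0.155), and within the replicate 3 pair it was 0.12. The difference between these 2 values, tested as an interaction, did not pass (limma adjusted p = 0.826).

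The level of Bcl2l2 is uncertain. Of its 4462 exon bases (chr14:54883377-54888234, plus strand), 594 (13.3%) are shared on the same strand with Gm20521, a model that reads through from Bcl2l2 into its neighbour Pabpn1. Gm20521 was listed at 10.8, 0.876 and 10.2 FPKM in knockdown replicates 1 to 3, against 14.4, 0 and 0 FPKM in controls, which did not follow the groups. The 2 models added together gave 18.2, 8.59 and 23.1 FPKM in knockdown, against 26.2, 13.4 and 11.7 FPKM in control, with widely overlapping groups. The sources used here do not say how reads were divided between them.

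Bcl2l1, the gene of BCL-XL and of its shorter pro-death splice form BCL-XS, measured 10.9, 6.80 and 9.86 FPKM in knockdown replicates 1 to 3, against 7.43, 12.1 and 8.65 FPKM in controls. High and low libraries were found in both groups. The means were 9.17 ± 2.12 FPKM in knockdown and 9.40 ± 2.44 FPKM in control (SD, n = 3 each), and the log2 fold change was -0.03 (SE 0.22, 95% interval -0.54 to 0.48). Values are per gene, so the 2 splice forms cannot be told apart. Bcl2l1 spans chr2:152780668-152831728 on the minus strand.

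**Figure D2:**
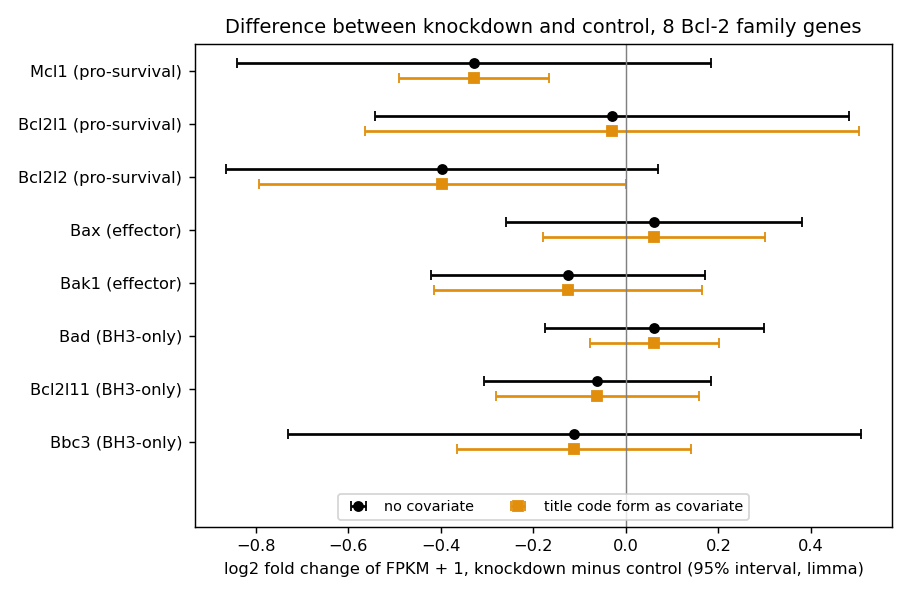
Log2 fold change of each gene, knockdown minus control, with its 95% interval from limma without (black circles) and with (orange squares) the title code form as a covariate. The interval of Mcl1 with the covariate runs from -0.49 to -0.17 and does not reach 0, and that of Bcl2l2 just reaches it.

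Among the effectors, Bax (chr7:45461697-45466898, minus strand) measured 47.2, 50.2 and 54.4 FPKM in knockdown replicates 1 to 3, against 39.8, 51.2 and 55.6 FPKM in controls. Control replicate 1 was the lowest library and the other 5 lay between 47.2 and 55.6 FPKM. The means were 50.6 ± 3.65 FPKM in knockdown and 48.9 ± 8.18 FPKM in control (SD, n = 3 each), and the log2 fold change was 0.06 (SE 0.14, 95% interval -0.26 to 0.38). Of the 1576 exon bases of Bax, 192 (12.2%) are shared on the same strand with the model Gm45808, which was not analysed here.

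Bak1 (chr17:27019810-27029009, minus strand) measured 1.36, 1.01 and 1.10 FPKM in knockdown replicates 1 to 3, against 1.22, 1.32 and 1.50 FPKM in controls. Knockdown replicates 2 and 3 were below all controls and knockdown replicate 1 was among them. The log2 fold change was -0.12 (SE 0.13, 95% interval -0.42 to 0.17). Part of its exons, at most 437 of 2407 bases for a single model, overlap Ggnbp1 on the opposite strand, and the sources used here do not say whether counting used strand.

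Among the BH3-only genes, Bad encodes a protein that binds BCL-XL and BCL-W and that survival kinases hold inactive by phosphorylation. Bad measured 21.5, 22.0 and 23.8 FPKM in knockdown replicates 1 to 3, against 19.9, 20.6 and 24.0 FPKM in controls, and replicate 3 was the highest library of either group. The log2 fold change was 0.06 (SE 0.10, 95% interval -0.18 to 0.30). Bad (chr19:6941861-6951898, plus strand) shares 524 of 2558 exon bases (20.5%) with Gpr137 on the opposite strand, which measured 8.24, 9.36 and 6.73 FPKM in knockdown, against 7.69, 7.96 and 6.13 FPKM in control.

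Bcl2l11, the gene of BIM, which binds all pro-survival members and can activate BAX directly, measured 2.81, 2.62 and 2.69 FPKM in knockdown replicates 1 to 3, against 3.05, 2.80 and 2.75 FPKM in controls. The 6 libraries varied little (coefficient of variation 5.35%, lower than in all but 5.54% of the genes tested), and the log2 fold change was -0.06 (SE 0.10, 95% interval -0.31 to 0.18). Bcl2l11 spans chr2:128126038-128162547 on the plus strand.

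Bbc3, the gene of PUMA and a classic target of the tumour suppressor p53, measured 10.7, 13.8 and 18.6 FPKM in knockdown replicates 1 to 3, against 13.0, 12.3 and 22.0 FPKM in controls. Replicate 3 was the highest library of each group, and the groups overlapped throughout. The means were 14.4 ± 3.96 FPKM in knockdown and 15.8 ± 5.40 FPKM in control (SD, n = 3 each), and the log2 fold change was -0.11 (SE 0.26, 95% interval -0.73 to 0.51). With the code form as a covariate its SE was 0.10. Bbc3 lies at chr7:16308393-16318205 on the plus strand.

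**Figure D3:**
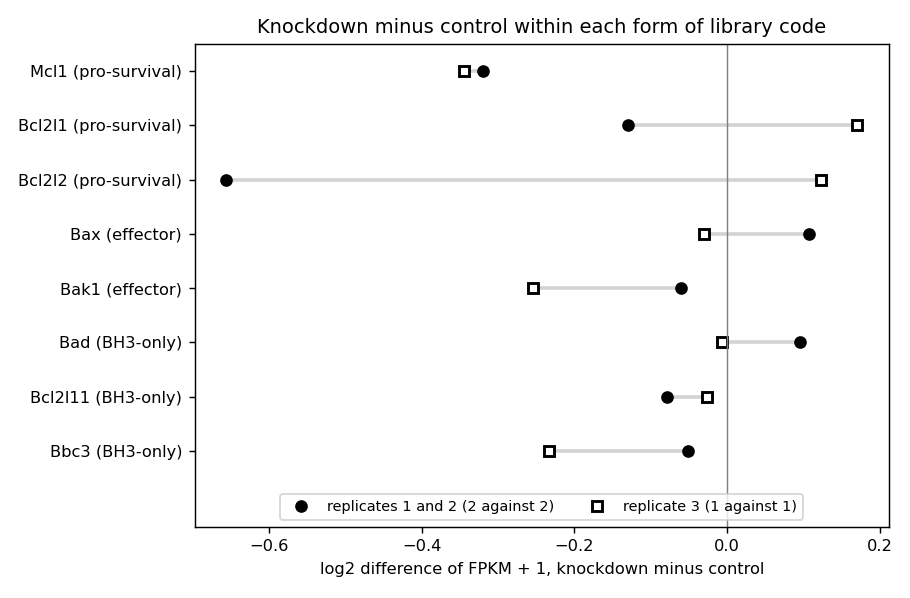
Log2 difference of FPKM + 1, knockdown minus control, within replicates 1 and 2 (filled circles, 2 libraries against 2) and within the replicate 3 pair (open squares, 1 against 1). Both points of Mcl1 lie near -0.33, whereas those of Bcl2l2 lie at -0.66 and 0.12.

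The balance of both sides was taken per library as the summed FPKM of the 3 pro-survival genes against that of the 5 pro-death genes, as a description without a test. The pro-survival sum was 29.1, 26.1 and 30.0 FPKM in knockdown replicates 1 to 3, against 33.7, 39.4 and 29.8 FPKM in controls. The pro-death sum was 83.5, 89.6 and 100.7 FPKM in knockdown, against 77.0, 88.2 and 105.9 FPKM in control. Knockdown replicates 1 and 2 were thus lower on the pro-survival side than their controls, while the pro-survival sum of replicate 3 was nearly the same in both groups.

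Pro-death over pro-survival FPKM came to 2.87, 3.43 and 3.36 in knockdown replicates 1 to 3, against 2.28, 2.24 and 3.55 in controls. The ratio was above that of control replicates 1 and 2 in all 3 knockdown libraries, and control replicate 3 had the highest ratio of all 6. It averaged 3.22 ± 0.31 in knockdown and 2.69 ± 0.74 in control (SD, n = 3 each), a difference smaller than the SD of the controls. On the log2 scale, pro-survival over pro-death differed by -0.29 between knockdown and control, by -0.47 within replicates 1 and 2, and by 0.08 within the replicate 3 pair. Adding Gm20521 to the pro-survival side gave a log2 difference of -0.15, and leaving out control replicate 3 gave -0.51. Bax held 56.5, 56.0 and 54.1% of the pro-death sum in knockdown, against 51.6, 58.0 and 52.6% in control. These are sums of mRNA, and the proteins, whose stability and phosphorylation set the balance in cells, were not measured.

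**Figure D4:**
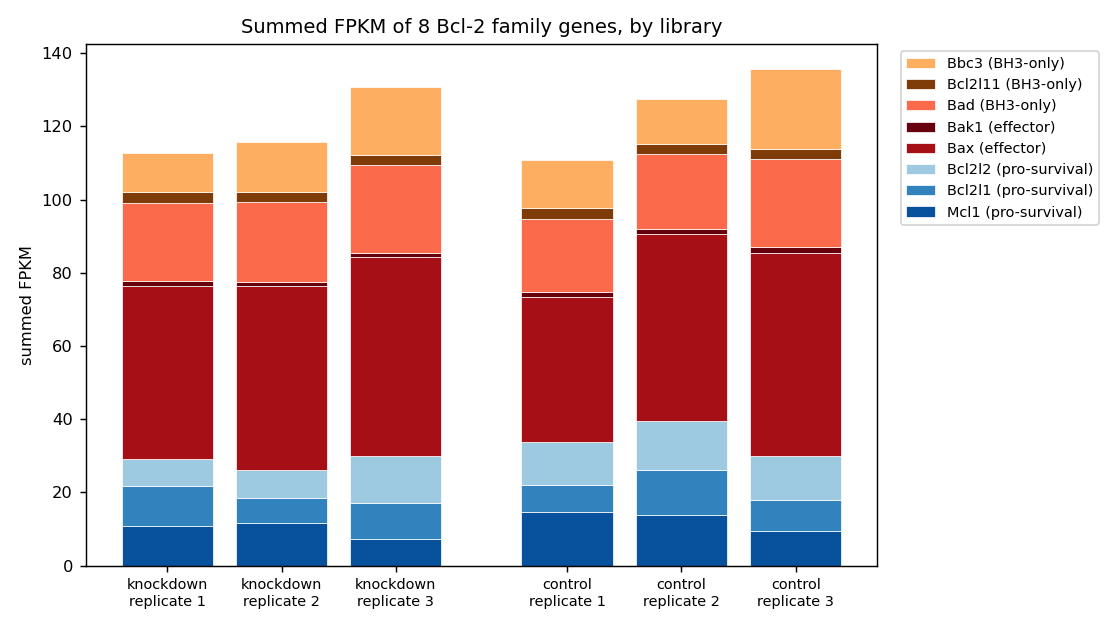
Stacked FPKM of the 8 genes in each library, knockdown left of control, with pro-survival genes in blue at the bottom and pro-death genes in red and brown above. The blue part is smallest in knockdown replicate 2 (26.1 FPKM) and largest in control replicate 2 (39.4 FPKM), and replicate 3 has the tallest bar of each group.

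Mcl1 and Bbc3 passed the threshold between replicate 3 and the other libraries, which they did not between knockdown and control. The sizes of both differences were not tested against each other. With knockdown accounted for, limma called 1513 of 8047 genes (18.8%) between replicate 3 and the other 4 libraries, 501 higher (6.23%) and 1012 lower (12.6%) in replicate 3. Under median scaling the call was 1449 genes, 751 of them higher, and under quantile normalization 1370 genes, 636 of them higher. Of the 8 family genes, 1 was called lower (Mcl1) and 1 higher (Bbc3). Among so few genes this is near the 18.8% of all genes tested, so it is no trait of the family. Mcl1 averaged 8.33 FPKM in replicate 3 and 12.7 FPKM in the other libraries (log2 difference -0.56, SE 0.07, limma adjusted p = 0.00509), and its lowest value in either group was that of replicate 3. Bbc3 averaged 20.3 FPKM in replicate 3 and 12.5 FPKM in the others (log2 difference 0.66, SE 0.11, limma adjusted p = 0.0115). The Mcl1 to Bbc3 ratio was 0.389 in knockdown replicate 3 and 0.429 in control replicate 3, while it lay between 0.841 and 1.13 in the other 4 libraries.

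With a single replicate 3 library left, neither call held, although the log2 differences were similar (-0.55 and -0.57 for Mcl1, 0.75 and 0.57 for Bbc3, without the knockdown and the control library). In these fits the lone replicate 3 library is assumed to vary like the others. For Mcl1 the limma adjusted p was 0.0608 without knockdown replicate 3 and 0.0552 without control replicate 3, and for Bbc3 it was 0.0750 and 0.121. Bax and Bad were also higher in both replicate 3 libraries than in all others, with log2 differences of 0.23 and 0.18, and did not pass (limma adjusted p = 0.182 and 0.0890). The log2 differences of Bcl2l1, Bcl2l2, Bak1 and Bcl2l11 lay between -0.04 and 0.30 and did not pass either. The summed level of mesangial and fibroblast markers was higher in replicate 3. The 10 of 12 in the table summed to 4713 to 4981 FPKM there and to 2159 to 2807 FPKM in the other libraries. Most of the sum was collagen mRNA, so it does not show that the markers moved as a set. Of the 10 genes, 5 were called higher and 1 lower in replicate 3 (6.23% and 12.6% of all genes tested). Their part in the Mcl1 and Bbc3 differences was not tested, and in bulk RNA fewer cells of a type cannot be told apart from less RNA per cell. Endothelial, tubule and immune markers (2 of 10, 1 of 12 and 1 of 10 in the table) summed to at most 3.54, 1.53 and 1.10 FPKM in any library.

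In the wider apoptosis pathway no gene passed between knockdown and control in any list, with or without the code covariate. A gene without a value could not be tested, and this does not show that it was not expressed. The other Bcl-2 family genes and Becn1 had 6 of 17 with a value, all of them tested, 4 above 0 and 2 below (median log2 fold change 0.01). Bcl2, the founding pro-survival member, was low, at 0.978 ± 0.17 FPKM in knockdown and 1.01 ± 0.16 FPKM in control (SD, n = 3 each, log2 fold change -0.02). Becn1, an autophagy gene whose protein carries a BH3 domain, measured 18.1 ± 2.72 FPKM in knockdown and 16.3 ± 2.79 FPKM in control. Bnip3, a mitophagy receptor gene, measured 81.0 ± 9.38 and 85.1 ± 8.65 FPKM, and the BH3-only gene Bmf 1.74 ± 0.12 and 1.72 ± 0.44 FPKM, in knockdown and control.

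Of 10 caspase genes only 2 had a value, and these 2 were tested, both slightly above 0 (median log2 fold change 0.06). Casp2 measured 3.02 ± 0.31 FPKM in knockdown and 2.78 ± 0.10 FPKM in control, and the inflammatory caspase gene Casp1 12.0 ± 3.17 FPKM in knockdown and 11.6 ± 3.03 FPKM in control (SD, n = 3 each). Genes of the apoptosome and of mitochondrial release had 8 of 9 with a value and 7 tested, 5 above 0 and 2 below (median 0.05). Vdac1, the gene of the main outer membrane channel, measured 86.3 ± 6.25 FPKM in knockdown and 94.5 ± 0.72 FPKM in control, with all knockdown libraries below all controls (log2 fold change -0.13, limma adjusted p = 0.998). Aifm1, the gene of apoptosis-inducing factor, measured 16.2 ± 1.78 FPKM in knockdown and 14.4 ± 1.41 FPKM in control. The inhibitor of apoptosis genes had 3 of 9 with a value and 2 tested. Xiap measured 3.46 ± 0.46 FPKM in knockdown and 3.48 ± 0.76 FPKM in control, and Birc6 18.9 ± 0.84 and 19.3 ± 0.76 FPKM. The death receptor list had 2 of 12 with a value and 1 tested. This was the adaptor gene Traf2, at 1.29 ± 0.26 FPKM in knockdown and 1.45 ± 0.14 FPKM in control (log2 fold change -0.10). Of the 18 tested genes of these 5 lists, Vdac1 alone had groups without overlap (5.56%, against 10.1% of all genes tested). Between replicate 3 and the other libraries, 4 of the 18 were called (22.2%, near the 18.8% of all genes tested). All 4 were lower in replicate 3, the more frequent direction among all genes in the values as deposited. That split depends on scaling (751 of 1449 calls were higher under median scaling). The 4 were Casp1 (log2 difference -0.66), the cytochrome c gene Cycs (-0.34), the channel gene Vdac2 (-0.31) and Bnip3 (-0.27). Their limma adjusted p-values were 0.00281, 0.0413, 0.0417 and 0.0185 in that order.

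**Figure D5:**
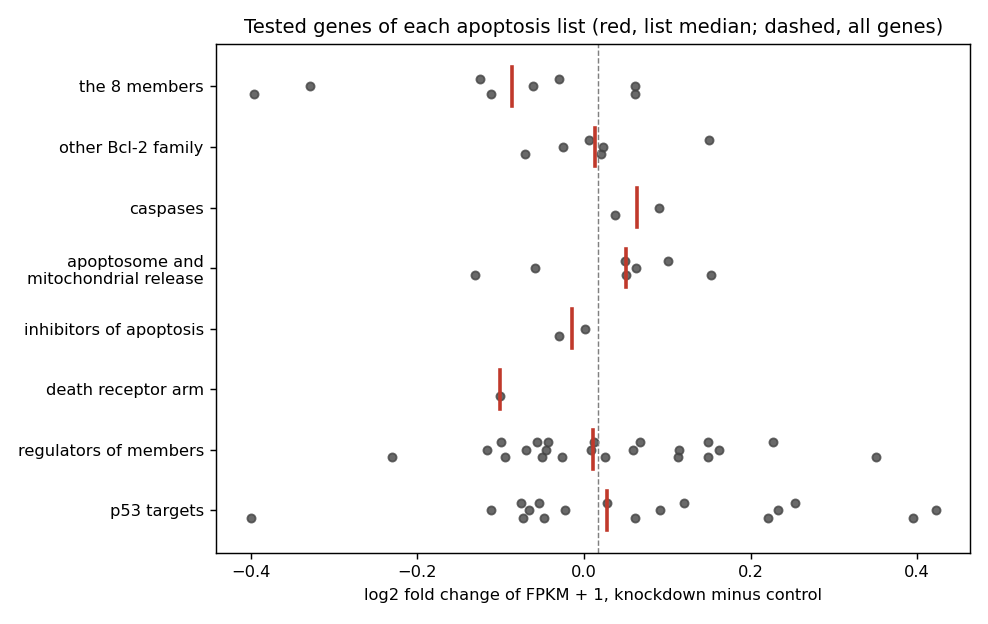
Log2 fold change, knockdown minus control, of every tested gene in each apoptosis list (points), with the list median (red line) and the median of all 8047 genes tested (dashed, 0.02). The list medians lie between -0.10 and 0.06, and none of the genes passed the threshold.

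Genes that act on the family members had 22 of 25 with a value, all of them tested, 12 above 0 and 10 below (median log2 fold change 0.01). Of the 22, 2 had an unadjusted p under 0.05 (9.09%, against 4.55% of all genes tested), Akt1 and Bag6, and 3 had groups without overlap (13.6%, against 10.1%). Akt1, the gene of a survival kinase that phosphorylates BAD, measured 68.1, 67.9 and 76.7 FPKM in knockdown replicates 1 to 3, against 79.8, 81.8 and 88.4 FPKM in controls. All knockdown libraries were below all controls, with a log2 fold change of -0.23 (SE 0.09, limma adjusted p = 0.998, and limma adjusted p = 0.147 with the code covariate). Its relative Akt2 measured 18.4 ± 0.26 FPKM in knockdown and 16.4 ± 1.75 FPKM in control, without overlap. Bag6, a chaperone cofactor gene, measured 47.8 ± 3.40 FPKM in knockdown and 40.7 ± 3.11 FPKM in control, also without overlap (log2 fold change 0.23, limma adjusted p = 0.998). Ywhab, the gene of a 14-3-3 protein of the kind that retains phosphorylated BAD in the cytosol, measured 36.6 ± 7.20 FPKM in knockdown and 28.2 ± 2.60 FPKM in control (SD, n = 3 each).

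The list of p53 targets, which includes Bbc3 and Bax, had 20 of 25 with a value and 17 tested, 9 above 0 and 8 below (median log2 fold change 0.03). Zmat3 measured 2.38 ± 0.62 FPKM in knockdown and 1.50 ± 0.25 FPKM in control (log2 fold change 0.42, limma adjusted p = 0.998), and the kinase gene Plk2 2.05 ± 0.78 FPKM in knockdown and 1.28 ± 0.18 FPKM in control, without overlap. Zmat3 alone of the 17 had an unadjusted p under 0.05 (5.88%, against 4.55% of all genes tested). Plk2 alone had groups without overlap (5.88%, against 10.1%), and neither gene passed. Between replicate 3 and the other libraries, 4 of the 17 were called higher (Bbc3, Trp53inp1, Sesn2 and Phlda3) and 0 lower. That is 23.5% in either direction, near the 18.8% of all genes tested. Of all genes tested, 6.23% were called higher and 12.6% lower, a split that depends on scaling (751 of 1449 calls were higher under median scaling). Bbc3 is the family gene already counted above. Of the 22 tested genes that act on family members, 2 were called higher in replicate 3 (Atf4 and Ddit3) and 2 lower (Foxo3 and Dynll1), 18.2% in either direction, near the 18.8% of all genes tested. Atf4, Ddit3 (CHOP) and Foxo3 encode transcription factors that can induce Bbc3. Their part in the Bbc3 difference was not tested. Atf4 measured 226 and 241 FPKM in replicate 3 of knockdown and control, against 119 to 135 FPKM in the other 4 libraries (log2 difference 0.88, limma adjusted p = 0.000465). Ddit3 measured 10.0 and 10.6 FPKM in replicate 3 of knockdown and control, against 5.51 to 7.46 FPKM in the others (log2 difference 0.57, limma adjusted p = 0.0235). Foxo3 measured 8.21 and 9.64 FPKM in replicate 3 of knockdown and control, against 11.7 to 12.6 FPKM in the others (log2 difference -0.40, limma adjusted p = 0.0233), and the log2 difference of Dynll1 was -0.42 (limma adjusted p = 0.00566).

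The family transcripts also differed in a sequence feature that bears on the targeted enzyme, although m6A itself was not measured in these libraries. The letters GGACT, a common core of m6A sites as spelled in DNA, were counted on the transcript strand of each gene's model with the longest coding sequence. Mcl1 held 8 copies in 3418 bases, 2 in its coding sequence and 6 in its 3′ untranslated region, or 2.34 per kilobase, against a median of 1.04 per kilobase over 7934 tested genes (93.8 percentile). Bax held 3.46 per kilobase (3 copies in 867 bases, 99.2 percentile) and Bbc3 2.76 (97.3 percentile). Bcl2l2 held 0.855 (3 copies in 3509 bases, 38.3 percentile), so Bax and Bcl2l2 differed in length and not in copies. Bad, Bak1, Bcl2l1 and Bcl2l11 lay at the 90.1, 80.9, 58.7 and 47 percentile. A relation to the fold changes was not tested. Copies are printed for Mcl1 only, although Bax and Bbc3 held more per kilobase, so the choice does not mark Mcl1 as a target. The 3 copies in Mcl1 closest to the stop codon, where m6A is often found, are printed in 25 bases of the plus strand of GRCm38, with GGACT in capitals.
Mcl1, chr3:95660832-95660856, 19 bases after the stop codon: gtgcaataggGGACTcttaaagctc
Mcl1, chr3:95660896-95660920, 83 bases after the stop codon: ttatgaaggtGGACTtgaagctgcc
Mcl1, chr3:95659971-95659995, in the coding sequence: ggacgaaacgGGACTggcttgtcaa
A match gives the letters only and does not show that a site is methylated.

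The pattern of each gene over the 6 libraries was compared with that of every other tested gene by Pearson's r on log2(FPKM + 1), as a description. The most alike genes were Cdc34 for Mcl1 (r = 0.996), Capza2 for Bcl2l2 (0.985), Anks1 for Bcl2l1 (0.991), Ergic3 for Bax (0.997), Gpc6 for Bak1 (0.955), Fbxl7 for Bad (0.993), Prkci for Bcl2l11 (0.972) and Loxl2 for Bbc3 (0.994). Over only 6 libraries such values are common, and the median of the best r of all genes tested was 0.992. No pair of family genes was each other's best match.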

How the data were processed

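Gene-level FPKM values were used as the authors deposited them, per the file headers. Tools listed in the submitters' processing notes, without roles, are HISAT2 2.0.4, StringTie 1.2.2, cutadapt 1.17, FastQC 0.11.7 and R 2.10.0, and the build listed is mm9. Of 9120 genes, 9110 matched GENCODE M21 by identifier and 8377 had its exact GRCm38 span, so coordinates are given on GRCm38. Counts and depth are not given in the sources used here.

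Libraries were grouped by title, 3 knockdown and 3 control. Values were not rescaled. The 8047 genes that reached 1 FPKM in 3 or more libraries were fitted on log2(FPKM + 1) with limma 3.58.1 in R 4.3.3 (intensity trend, two-sided), with Benjamini-Hochberg adjustment across all 8047. The test was checked on simulated data with independent noise, no replicate 3 difference and planted effects larger than any seen in the family genes. It therefore cannot show whether effects of the size seen here would be found. Replicate 3 was compared with the other libraries with knockdown as a term. P-values measure the spread between these libraries, which may be technical.

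Deviations from the group means correlated between same-numbered libraries with r = 0.231, 0.196 and 0.558 for numbers 1 to 3. Crossed pairs of numbers 1 and 2 gave 0.257 and 0.226, as high as the same-numbered ones. Deviations within a group cancel out, so replicate 3 libraries that deviate alike also make numbers 1 and 2 correlate. These values cannot show a pairing of numbers 1 and 2. The replicate number was also fitted as a block, as an alternative. The numbers come from the titles.

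The genes and lists were chosen with earlier results of these data known. Named genes are the 9 family genes, Mettl3, up to 4 genes per list with the smallest unadjusted p, and the best match of each family gene. Atf4, Ddit3, Trp53inp1, Sesn2, Phlda3, Foxo3, Dynll1, Cycs and Vdac2 were named after their values were seen, from the lists. Alternatives were another pseudocount, filter, scaling, variance model, covariate or block, and leaving out each library.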

Additional observations from a re-analysis of the deposited data

How the results depend on the processing

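Between knockdown and control the number of genes past the threshold was 0, and it was 2 within the 4 HG-coded libraries, 1 with a robust variance without trend, and 0 to 2 without each library in turn. None of these was a Bcl-2 family gene. With the replicate block 0 genes passed by limma (872 with an unadjusted p under 0.05, against 366 without it), and the adjusted p of Mcl1 was 0.304, its log2 fold change of -0.33 being fixed by the balance of the block. The block changed no call. Without each library in turn, log2 fold changes reached both signs for Bcl2l1 (-0.17 to 0.15), Bax (-0.077 to 0.16) and Bbc3 (-0.30 to 0.14), and for Bnip3 (-0.16 to 0.020), Bcl2 (-0.072 to 0.047), Bmf (-0.11 to 0.12), Casp1 (-0.18 to 0.26), Htra2 (-0.025 to 0.15) and Xiap (-0.11 to 0.13). They kept their sign for Mcl1 (-0.51 to -0.14), Bcl2l2 (-0.63 to -0.27), Bak1 (-0.19 to -0.08), Bcl2l11 (-0.08 to -0.03), Bad (0.01 to 0.14) and Mettl3 (-0.56 to -0.50). Mcl1 was at -0.14 without knockdown replicate 3 and at -0.51 without control replicate 3. Within the HG-coded libraries Bcl2 was at 0.032 and Xiap at -0.093, and Xiap was at -0.013 under median scaling and at -0.0081 under quantile normalization, against 0.0014 in the values as deposited. The balance was -0.29 and ranged from -0.51 to -0.17 without each library. Genes called between replicate 3 and the other libraries numbered 1513, and 343 to 1204 without each library. They numbered 362 without knockdown replicate 3, 343 without control replicate 3 and 923 without knockdown replicate 1. The cause was not tested. Depth is unknown, so the precision of low genes such as Bak1 and Bcl2 cannot be given beyond the spread of 3 libraries.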
